A study of Mus musculus with 12 samples.

Results

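A set of 10 genes that mark the inner cell mass and epiblast, outside the core transcription factors, was followed through the RNA sequencing of mouse blastocysts and embryonic stem (ES) cells with and without Dis3l. They are Tdgf1, Gdf3, Fgf4, Spp1, Dppa2, Dppa3, Dppa4, Utf1, Klf5 and Dppa5a, taken by gene symbol. All 10 were among the 45706 genes of the blastocyst table, and 9 were among the 13009 genes of the ES cell table, which does not list Dppa3. The genes were chosen by symbol as known markers, with their fold changes and p-values in both tables already seen, so their levels and differences are given as descriptions and support nothing about the set as a whole.

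Dis3l encodes an exonuclease of the cytoplasmic exosome, a complex that removes RNA starting at the 3′ end. In the labels there are 12 samples, 3 in each of 4 groups: Dis3L KO blastocysts, Dis3L WT blastocysts, Dis3L KO ES cells and Dis3L WT ES cells. Females of every blastocyst group were superovulated with PMSG and hCG, embryos were collected 96 h after hCG, and each blastocyst library came from a single whole embryo. The ES cell lines of both genotypes were derived from blastocysts on inactivated mouse embryonic fibroblasts and grown with serum and LIF at 500 IU/ml. The Dis3l allele and the number of litters and of ES cell lines are not given in the sources used here, so p-values measure only the spread between the samples.

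A blastocyst holds an outer trophectoderm and an inner cell mass, which splits into epiblast and primitive endoderm. The epiblast makes Fgf4, which directs neighbouring cells to primitive endoderm, and it carries the Nodal co-receptor Tdgf1. The developmental pluripotency associated (Dppa) genes share a name but do not all belong to a single protein family. ES cells are the cultured counterpart of the epiblast.

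Each material came with 1 table of the authors' comparison results and no value per sample. The authors' means, given to 15 significant digits, were resolved into the whole reads of each count column: 6 columns in blastocysts, 3 on each side of the comparison, and 4 in ES cells, 2 on each side, although the labels list 6 ES cell samples. Columns are numbered by relative depth, from 0.695 to 1.62 in blastocysts and from 0.759 to 1.25 in ES cells. Neither table names which genotype is divided by which, so a column is said to lie on the positive or the negative side according to the sign of the log2 fold changes it goes with, and no column was assigned to a genotype or sample. Reads of Dis3l were 0, 8 and 26 on the positive side against 8, 4 and 10 on the negative side in blastocysts, so its reads did not separate the sides. In ES cells they were 8 and 14 on the positive side against 39 and 39 on the negative side, and the authors' deposited table gave Dis3l there a log2 fold change of -0.88 with an adjusted p-value of 0.445.

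None of the 10 genes passed the adjusted threshold of 0.05 in the authors' deposited table for blastocysts, where 0.0986% of the 15209 tested genes did. Of the 10 genes, 4 had a p-value under 0.05 before adjustment in the authors' deposited table, Tdgf1, Dppa2 and Dppa4 with a negative sign and Klf5 with a positive one, against 6.21% of all tested genes (3.53% negative and 2.68% positive). The log2 fold change was below 0 for 8 of the 10 and for 51.7% of all tested genes in the authors' deposited table. The median log2 fold change of the 10 was -0.47, and that of all tested genes was -0.04. Reads of all 10 genes were present on both sides. In these whole embryos, fewer cells of a type and less RNA per cell cannot be told apart.

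**Figure D1:**
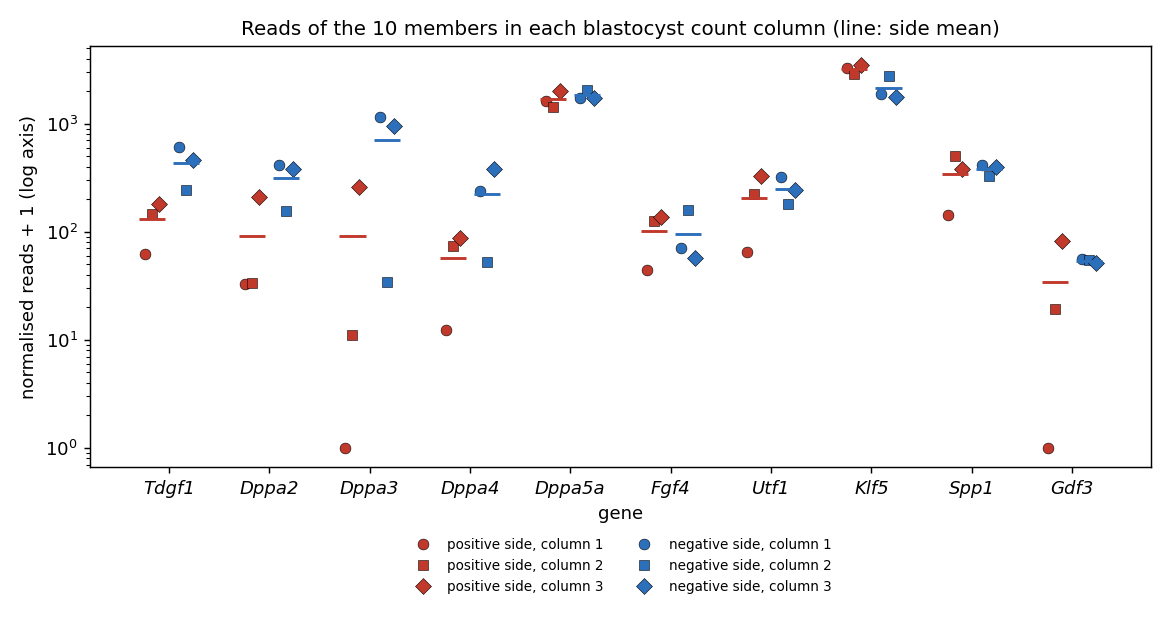
Normalised reads plus 1 (log axis) of the 10 genes in each of the 6 blastocyst count columns; red marks are the positive side, blue marks the negative side, and lines are the means of 3 columns. Tdgf1 has every red mark below every blue one, Klf5 has every red mark above every blue one, and the other 8 genes overlap.

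Tdgf1 encodes Cripto, a membrane-anchored co-receptor that lets cells answer Nodal. Its gene lies on chromosome 9 from 110939603 to 110946158 on the minus strand (GRCm38). Dis3l is on the same chromosome, and so is Dppa5a, whose log2 fold change in the authors' deposited table for blastocysts was -0.13. The blastocyst columns held 54, 144 and 252 reads of Tdgf1 on the positive side against 424, 216 and 736 on the negative side. After division by relative depth these were 61.7, 146 and 180 normalised reads against 610, 241 and 455. The positive side had a mean of 129 ± 60.9 and the negative side 435 ± 185 (SD, n = 3 each), a 3.37-fold lower level on the positive side. Every positive-side column lay below every negative-side column, an arrangement seen in 6.55% of 4089 other genes with a mean of 20 to 100, below that of Tdgf1 (282).

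Tdgf1 had the lowest p-value of the 10 in the authors' deposited table: a log2 fold change of -1.75 (standard error, SE, 0.50), a p-value of 0.000459 and an adjusted p-value of 0.205. That p-value ranked 34 among the 15209 tested genes of the authors' deposited table. A processed copy of the gene, Tdgf1-ps1, held 0, 0 and 6 reads on the positive side against 16, 10 and 36 on the negative side. Reads shared between a gene and its near-identical copy can be split by the counting, so both are uncertain to that extent.

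Promoter sequence was in the RefSeq table (GRCm38.p6) for 4 of the 10 genes, Tdgf1, Fgf4, Utf1 and Spp1. The 250 bases before the start are shown for Tdgf1, whose sides lay apart, and for Fgf4, whose deposited change in blastocysts was the smallest of the 10. Capitals mark matches, on either strand, to the Klf-type motif GGGNGTGG or the GC box GGGCGG. The Tdgf1 window is chr9:110946159-110946408 on the minus strand and the Fgf4 window is chr7:144861136-144861385 on the plus strand.
Tdgf1: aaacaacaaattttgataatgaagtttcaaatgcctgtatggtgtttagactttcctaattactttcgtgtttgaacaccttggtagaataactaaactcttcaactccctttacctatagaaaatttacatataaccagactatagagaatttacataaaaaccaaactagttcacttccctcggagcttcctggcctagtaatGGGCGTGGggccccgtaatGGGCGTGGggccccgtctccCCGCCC
Fgf4: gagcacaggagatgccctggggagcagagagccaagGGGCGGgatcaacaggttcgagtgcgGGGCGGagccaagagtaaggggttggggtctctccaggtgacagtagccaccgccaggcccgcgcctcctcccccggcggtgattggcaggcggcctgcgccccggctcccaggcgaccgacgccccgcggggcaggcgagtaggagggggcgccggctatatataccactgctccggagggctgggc
The Tdgf1 window held 2 Klf-type matches, at bases 206 to 213 and 225 to 232 counted from its 5′ end, and 1 GC box at bases 245 to 250, with no overlap between them. The Fgf4 window held 2 GC boxes and no Klf-type match. Of 32851 promoter windows of the same length, 15.9% held the Klf-type motif and 32.7% the GC box. Also searched were the octamer ATGCNAAT (2.86% of windows), the Sox motif ACAAAG (16.5%), the Esrrb motif AAGGTCA (4.08%) and the TATA box TATAAA (12.4%). Neither the Tdgf1 nor the Fgf4 window held any of these, while the window of the second Spp1 start site held 1 octamer and 1 Sox match. A match describes letters only.

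The other signalling members did not separate the sides. Gdf3, a secreted ligand of the transforming growth factor beta family related to Nodal, had 0, 18.3 and 81.4 normalised reads on the positive side against 54.7, 53.5 and 50.7 on the negative side. The 3 negative-side values lay close together and inside the positive-side range. If each read is a separate count, a count of 0 in positive-side column 1 allows up to 3 reads, or 3.43 normalised reads (counting error only). Blastocyst reads were mostly even, so the limit may be higher. The authors' deposited table gave Gdf3 a log2 fold change of -0.66 (SE 1.18). The recovered log2 ratio was -0.09 without positive-side column 1 and -2.54 without positive-side column 3.

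Fgf4, the fibroblast growth factor of the epiblast, had 43.4, 124 and 136 normalised reads on the positive side against 69.1, 158 and 55.7 on the negative side. Low and high columns occurred on both sides. Its log2 fold change in the authors' deposited table was 0.10 (SE 0.68), and the recovered ratio turned negative without positive-side column 2 (-0.08) or 3 (-0.17), and without negative-side column 1 (-0.08) or 3 (-0.17).

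Spp1 encodes osteopontin, a secreted ligand of integrins and CD44. It had 142, 505 and 382 normalised reads on the positive side against 417, 330 and 399 on the negative side. The low one was positive-side column 1, and the other 5 columns lay between 330 and 505. The authors' deposited table gave Spp1 a log2 fold change of -0.15 (SE 0.46), and without positive-side column 1 the recovered log2 ratio was 0.22.

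Dppa2 and Dppa4 encode SAP-domain nuclear proteins that bind chromatin together and promote genes of the 2-cell embryo. They are neighbours on chromosome 16, Dppa4 from 48283735 to 48294292 and Dppa2 from 48310477 to 48319723 (GRCm38), with a gap of 16.2 kb and no listed gene between them. Dppa2 had 32.0, 32.5 and 208 normalised reads on the positive side against 411, 156 and 377 on the negative side. The third positive-side column reached above negative-side column 2, so the sides overlapped. Without positive-side column 3 the log2 ratio of Dppa2 was -3.29, and without positive-side column 1 it was -1.39.

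Dppa4 had 11.4, 73.1 and 85.7 normalised reads on the positive side against 236, 51.3 and 376 on the negative side. Here negative-side column 2 was the exception, below positive-side columns 2 and 3. The deposited log2 fold changes of the pair were alike in size. In the authors' deposited table Dppa2 had -1.79 (SE 0.69), a p-value of 0.00911 and an adjusted p-value of 0.550. For Dppa4 the authors' deposited table had -1.96 (SE 0.77), a p-value of 0.0107 and an adjusted p-value of 0.581. Without negative-side column 3 its recovered log2 ratio was -1.34, and without negative-side column 2 it was -2.43. On either side of the pair, the pseudogene Gm7204 had a log2 fold change of -0.71 (SE 1.38) in the authors' deposited table and n-R5s36 was listed at 0.

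The 2-cell genes named as downstream of this pair had no counted reads in blastocysts. All 9 of the list, among them Zscan4c, Zscan4d and Zfp352, were listed at a mean of 0 in the authors' deposited table. A mean of 0 counted reads need not mean no transcript. For ES cells, 3 of the 9 were listed, with means of 3.96 to 8.35 and no adjusted p-value.

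Dppa3 (Stella), a protein stored in the egg that shields DNA methylation from removal and restrains Uhrf1, had the largest standard error of the 10 genes. It held 0, 10 and 364 reads on the positive side against 794, 30 and 1542 on the negative side. In normalised reads these were 0, 10.1 and 260 against 1142, 33.4 and 954. Each side had both high and low columns, so a 7.89-fold lower positive-side mean came (SE 2.25) on a deposited log2 fold change of -2.98, and the p-value in the authors' deposited table was 0.186. Without positive-side column 3 the log2 ratio was -7.13, and without positive-side column 1 it was -2.39. The pseudogene Dppa3-ps held 0, 0 and 20 reads on the positive side against 18, 0 and 58 on the negative side, with its reads in the 3 columns where Dppa3 was highest.

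Of the 9 listed genes of DNA methylation that work beside Dppa3, all 9 were tested in blastocysts, 4 with a positive and 5 with a negative sign, and none had a p-value under 0.05 before adjustment in the authors' deposited table. Dnmt3b, a de novo methyltransferase, had the highest mean of the list in the authors' deposited table (1668) and a log2 fold change of -0.22 (SE 0.28).

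Gdf3, Dppa3 and Nanog are neighbours too. Gdf3 lies on chromosome 6 from 122605403 to 122610087 and Dppa3 from 122626410 to 122630272, a gap of 16.3 kb, and Nanog begins 77.2 kb beyond Dppa3 (GRCm38). Nanog, a core pluripotency factor, had 9.14, 65.0 and 197 normalised reads on the positive side against 331, 185 and 518 on the negative side. Its log2 fold change in the authors' deposited table was -1.93 (SE 0.73), a p-value of 0.00863 and an adjusted p-value of 0.546. Between Dppa3 and Nanog, the pseudogene Gm10224 had a positive value in the authors' deposited table, 1.16 (SE 0.90) and a p-value of 0.196. The pseudogene Gm10420, also between them and with a mean of 4.68, had a negative value there, -0.45 (SE 2.66) and a p-value of 0.866.

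Utf1, a chromatin-associated factor of pluripotent and germ cells, had 64.0, 223 and 327 normalised reads on the positive side against 322, 178 and 244 on the negative side. The lowest and the highest column were both on the positive side. The authors' deposited table gave Utf1 a log2 fold change of -0.27 (SE 0.56), and without positive-side column 1 the recovered log2 ratio was 0.15.

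Klf5, a zinc-finger transcription factor used by both the inner cell mass and the trophectoderm, was the only one of the 10 genes with every positive-side column above the negative side. It had 3296, 2875 and 3478 normalised reads on the positive side against 1876, 2778 and 1774 on the negative side, a 1.5-fold higher mean on the positive side (3216 ± 309 against 2143 ± 553, SD, n = 3 each). Positive-side column 2 and negative-side column 2 were the closest pair. That arrangement was seen in 5.36% of the 4089 other genes, whose means of 20 to 100 lie far below that of Klf5. In the authors' deposited table Klf5 had a log2 fold change of 0.59 (SE 0.27), a p-value of 0.0274 and an adjusted p-value of 0.737.

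Dppa5a (ESG1), a KH-domain RNA-binding protein, varied least. It had 1620, 1409 and 1993 normalised reads on the positive side against 1723, 2029 and 1729 on the negative side. The 6 columns lay within 1.44-fold of each other and the sides overlapped. The authors' deposited table gave Dppa5a a log2 fold change of -0.13 (SE 0.26). Of its listed KH-domain and maternal complex relatives, 5 of 6 were tested and all 5 had a negative sign in the authors' deposited table, none with an unadjusted p-value under 0.05. Khdc3 had the highest mean of these (1193) and a log2 fold change of -1.65 (SE 1.04) in the authors' deposited table.

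Most of these genes were at their lowest in the same blastocyst column. Positive-side column 1 was the lowest of the 6 for 8 of the 10 genes, all but Dppa5a and Klf5. It was the lowest for 23.1% of 4089 other genes, whose means of 20 to 100 lie below those of most of the 10. That column was also at 0 for 9.90% of those other genes, against 2.03% to 5.60% in the other columns. Without positive-side column 1, 6 of the 10 genes had a lower positive-side mean, and the median log2 ratio of the 10 was -0.10. Without positive-side column 3 the median was -1.43.

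**Figure D2:**
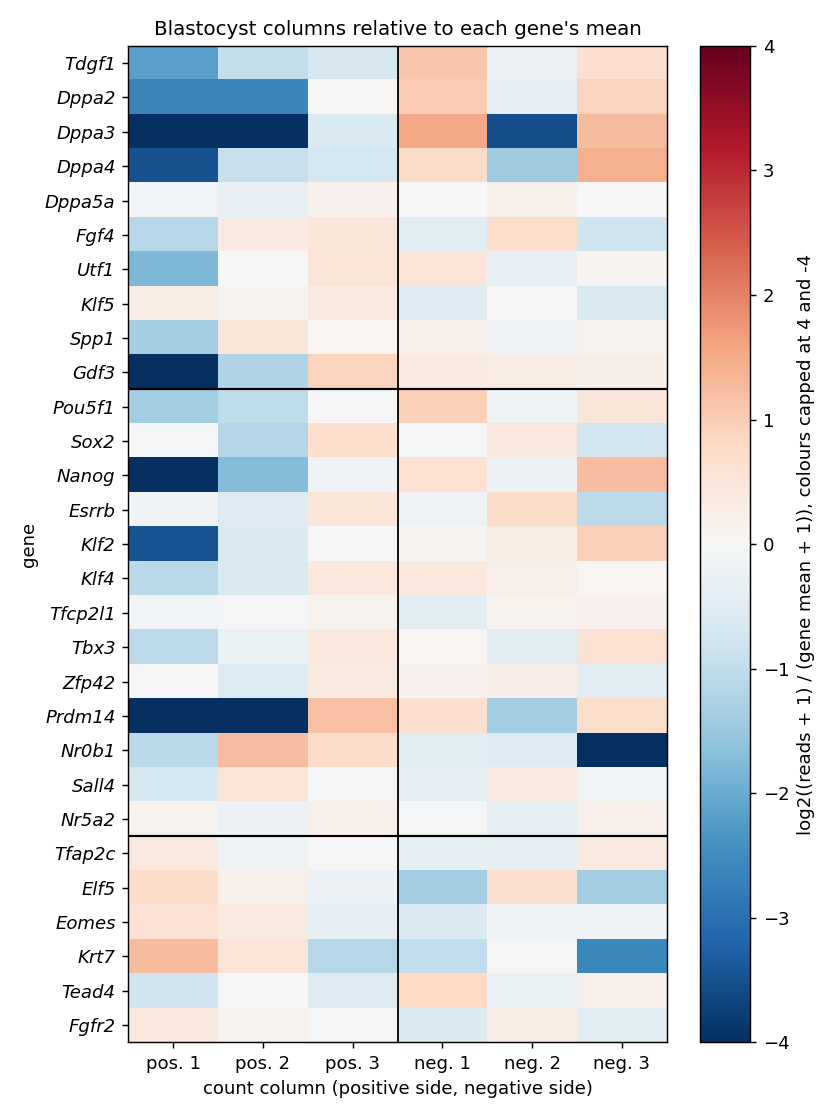
Each row is a gene and each column a blastocyst count column; colour is log2 of normalised reads plus 1 over the gene's mean plus 1, capped at 4 and -4. The top block holds the 10 genes, the middle block 13 core and naive transcription factors and the bottom block the 6 trophectoderm markers with recovered reads; positive-side column 1 is the lowest column for 8 of the 10 genes at the top.

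The 6 trophectoderm markers with recovered reads summed highest in that column. The summed normalised reads of 6 trophectoderm markers (Tfap2c, Elf5, Eomes, Krt7, Tead4 and Fgfr2) were 6893, 5491 and 3945 on the positive side against 3366, 5165 and 3645 on the negative side. In positive-side column 1 5 of the 6 were at their highest of all columns and Tead4 at its lowest. Dlx3 was at 0 in every column, and the reads of Cdx2, Gata3, Krt8, Krt18 and Tfap2a were not recovered. Krt18 (mean 7678), Krt8 (5505), Gata3 (2072) and Cdx2 (1866) each had a higher mean than any summed marker, so the sum leaves out the most abundant ones. In the authors' deposited table the log2 fold change was negative for Krt8 (-0.87) and Krt18 (-0.63) and positive for Gata3 (0.52). The sums of 13 core transcription factors were 3779, 4990 and 5765 against 4932, 5643 and 5818, and 6 of the 13 (Pou5f1, Nanog, Klf2, Klf4, Tbx3 and Sall4) were lowest in positive-side column 1. The sums of 9 primitive endoderm markers were 4127, 4878 and 4647 against 3798, 6573 and 3155, with positive-side column 1 in between. The part of these markers in the results of the 10 genes was not tested.

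Within the core transcription factor list, 2 of 13 had a p-value under 0.05 before adjustment in the authors' deposited table, Nanog and Pou5f1 (log2 fold change -1.21, SE 0.48, p-value 0.0124). Of 11 tested trophectoderm markers 4 did, in both directions: Krt8 (-0.87) and Krt18 (-0.63), the keratins of the outer layer, and Krt7 (1.33) and Gata3 (0.52) in the authors' deposited table. Among 10 tested primitive endoderm markers Sox7 (3.27, p-value 0.00226) and Hnf4a (-3.45, p-value 0.0330) did in the authors' deposited table. None of these passed after adjustment. Of the fibroblast markers, 8 of 12 were at 0 in every blastocyst column, Col1a1 and Col1a2 among them. The sums of the other 4 (Fn1, Vim, Thy1 and Twist1) were 329, 595 and 1313 on the positive side against 1493, 1298 and 928 on the negative side. Fn1 made up most of each sum, at 329, 566 and 1176 against 1401, 1231 and 768.

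The lists around the signalling members are short, and 6.21% of all tested genes had a p-value under 0.05 before adjustment in blastocysts, so counts of 0 in them say little. In the list around Nodal, which leaves out Tdgf1 itself, 13 genes were tested in blastocysts, 8 positive and 5 negative, and 0 had a p-value under 0.05 before adjustment in the authors' deposited table. Smad4, the shared signal transducer, had 0.41 (SE 0.34) in the authors' deposited table. Of 19 tested genes of the FGF receptors and their response, 15 were positive and 4 negative, and again 0 reached that p-value in the authors' deposited table. Fgfr2, the receptor of trophectoderm and primitive endoderm, had 0.38 (SE 0.31) in the authors' deposited table. Of 6 tested osteopontin receptor genes, 5 were positive and 1 negative, and 0 reached it in the authors' deposited table.

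Over the 6 blastocyst columns the mean standardised profile of the 10 genes was followed closely by Gdf3 (r = 0.99), Utf1 (0.94) and Dppa3 (0.89), less by Fgf4 (0.53) and Dppa5a (0.52), and in the opposite sense by Klf5 (-0.42). These are Pearson correlations of log2(normalised reads + 1) over 6 columns that share depth and embryo, each gene being part of the mean, and they describe these columns only. Among 4089 other genes, the most alike to the mean profile were Mesdc1 (r = 0.996), Zc3hav1l (0.996) and E2f5 (0.993). Mesdc1 had 0, 16.2 and 88.5 normalised reads on the positive side against 86.3, 40.1 and 43.3 on the negative side.

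Levels between genes were compared per kilobase of the longest annotated transcript. In blastocysts the mean level was highest for Dppa5a, at 2828 normalised reads per kb, then Klf5 (799), Dppa3 (480), Spp1 (241), Utf1 (185), Tdgf1 (146), Dppa4 (93.9), Dppa2 (82.9), Fgf4 (32.2) and Gdf3 (20.3). Dppa5a was the only gene whose columns, at 2276 to 3278 per kb, lay wholly above those of the next in this order. Each of the other neighbours overlapped in their column ranges. Dppa5a per kb exceeded 99.8% of the tested genes, and Gdf3 exceeded 52.8%.

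**Figure D3:**
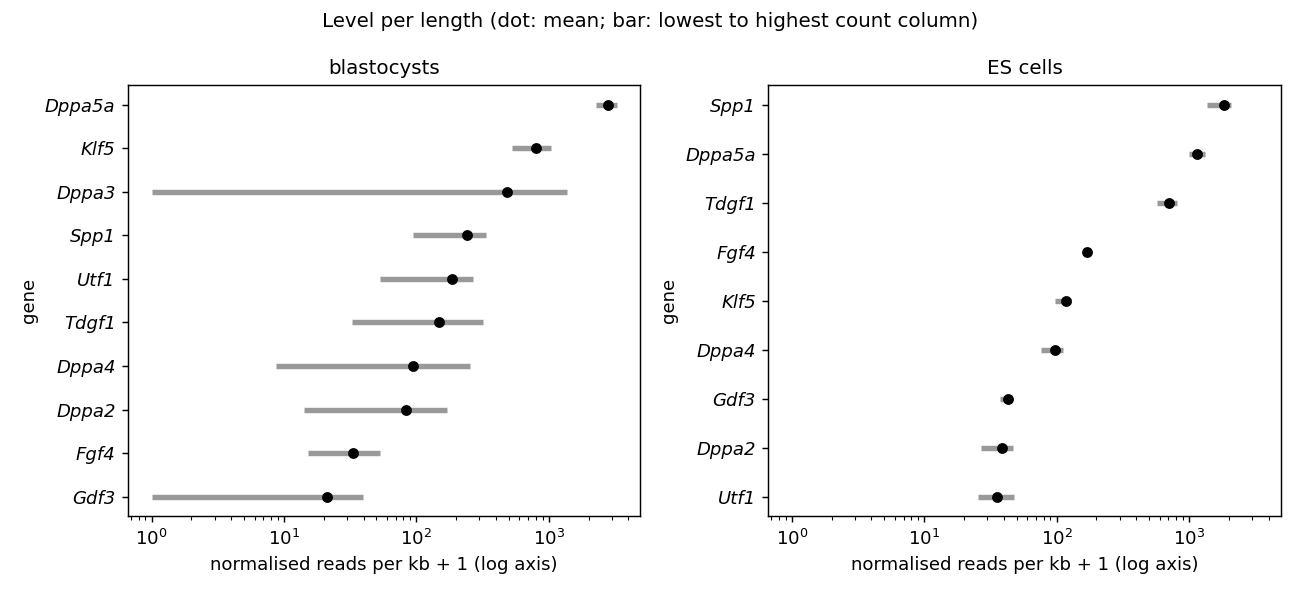
Normalised reads per kb of transcript plus 1 (log axis) of each gene, in blastocysts (left, 6 columns) and ES cells (right, 4 columns); dots are means and grey bars run from the lowest to the highest count column. Dppa5a leads in blastocysts at 2828 per kb, and Spp1 leads in ES cells at 1850 per kb.

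The order in ES cells began with Spp1 (1850 normalised reads per kb), Dppa5a (1144), Tdgf1 (712) and Fgf4 (169), and these 4 did not overlap their neighbours in column range. Klf5 (116) and Dppa4 (96.8) overlapped, as did Gdf3 (42.2), Dppa2 (37.9) and Utf1 (34.6), while Dppa4 lay above Gdf3 in every column. The materials were made into libraries by different methods and normalised separately, so the levels are set side by side without a test. The columns of 1 gene spanned from 1.14-fold for Fgf4 to 1.88-fold for Utf1 over the 4 ES cell columns. Over the 6 blastocyst columns, a larger number that widens such a span, they ran from 1.44-fold for Dppa5a and 1.96-fold for Klf5 to 9.89-fold for Tdgf1 and 32.9-fold for Dppa4, and Dppa3 and Gdf3 began at 0.

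In ES cells none of the 9 listed genes passed the adjusted threshold of 0.05 in the authors' deposited table, where 0.261% of 10739 tested genes did, and 0 of the 9 had an unadjusted p-value under 0.05 against 5.62% of all tested genes (3.42% negative and 2.21% positive). The log2 fold change was below 0 for 5 of the 9 and for 50% of all tested genes in the authors' deposited table, with medians of -0.09 and -0.0001. The authors' ES cell fold changes were matched by a fit with shrinkage towards 0 and not by one without. Values without shrinkage are therefore given for Tdgf1, Dppa5a, Klf5, Dppa4 and Dppa2. The other deposited ES cell fold changes in the text are shrunken. For Dis3l, with few reads, the deposited -0.88 became -1.78 without shrinkage. Without negative-side column 1, 8 of the 9 recovered ratios were negative.

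**Figure D4:**
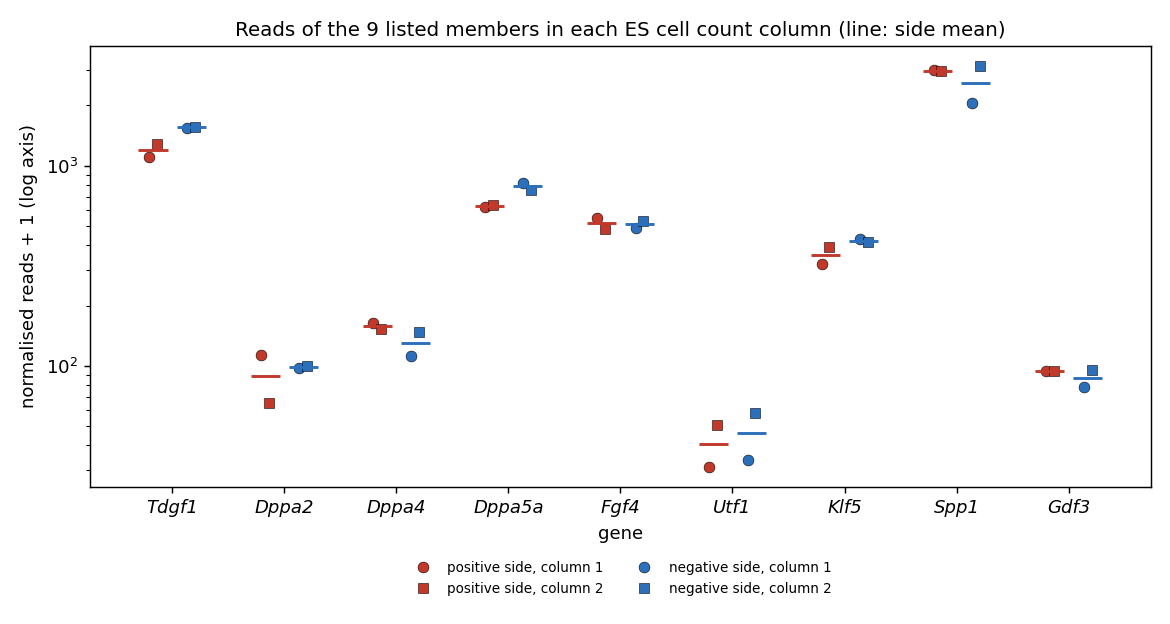
Normalised reads plus 1 (log axis) of the 9 listed genes in each of the 4 ES cell count columns; red marks are the positive side, blue marks the negative side, and lines are the means of 2 columns. Tdgf1, Dppa5a and Klf5 have both red marks below both blue marks, Dppa4 has both above, and the other 5 genes overlap.

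Tdgf1 held 839 and 1612 reads on the positive side of the ES cell table and 1604 and 1641 on the negative side, or 1105 and 1287 normalised reads against 1550 and 1560. The positive side was lower in both columns, by 1.3-fold in the mean. With 2 columns a side such a separation is common: 21.1% of 8069 other genes had both positive-side columns below, and 20.2% had both above. The authors' deposited table gave Tdgf1 a log2 fold change of -0.34 (SE 0.20) and a p-value of 0.0886. Without shrinkage it was -0.38 (SE 0.22).

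Dppa5a and Klf5 were arranged the same way in ES cells. Dppa5a had 620 and 633 normalised reads against 822 and 756, and Klf5 had 321 and 391 against 427 and 414. In the authors' deposited table Dppa5a had a log2 fold change of -0.30 (SE 0.21) and a p-value of 0.151, and Klf5 had -0.20 (SE 0.22) and a p-value of 0.363. The unshrunken values were -0.33 and -0.24.

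Dppa4 was the only listed gene with both positive-side columns above, at 163 and 151 normalised reads against 111 and 147. The nearest columns differed by less than the negative-side columns did. Its chromosomal neighbour Dppa2 had 112 and 63.9 against 96.6 and 98.9, with the highest and lowest column on the same side. Unshrunken log2 fold changes were 0.28 for Dppa4 and -0.17 for Dppa2.

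Fgf4 (549 and 481 normalised reads against 485 and 531), Utf1 (30.3 and 49.5 against 32.9 and 57.0) and Gdf3 (93.5 and 93.4 against 77.3 and 94.1) overlapped between the sides of the ES cell table. Spp1 had 2991 and 2966 normalised reads on the positive side against 2046 and 3149 on the negative side, so negative-side column 1 stood alone. That column also had the highest sum of 11 fibroblast markers, 3262 against 1882, 2426 and 2125 in positive-side columns 1 and 2 and negative-side column 2. The markers of that list did not move together. Col3a1 (865 normalised reads there, 44.7 to 73.7 in the other columns) and Col1a1 (77.3 there, 14.4 to 27.6 in the others) were highest in that column, while Vim (452) and S100a4 (42.5) were lowest there. The part of feeder fibroblasts in these values was not tested.

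**Figure D5:**
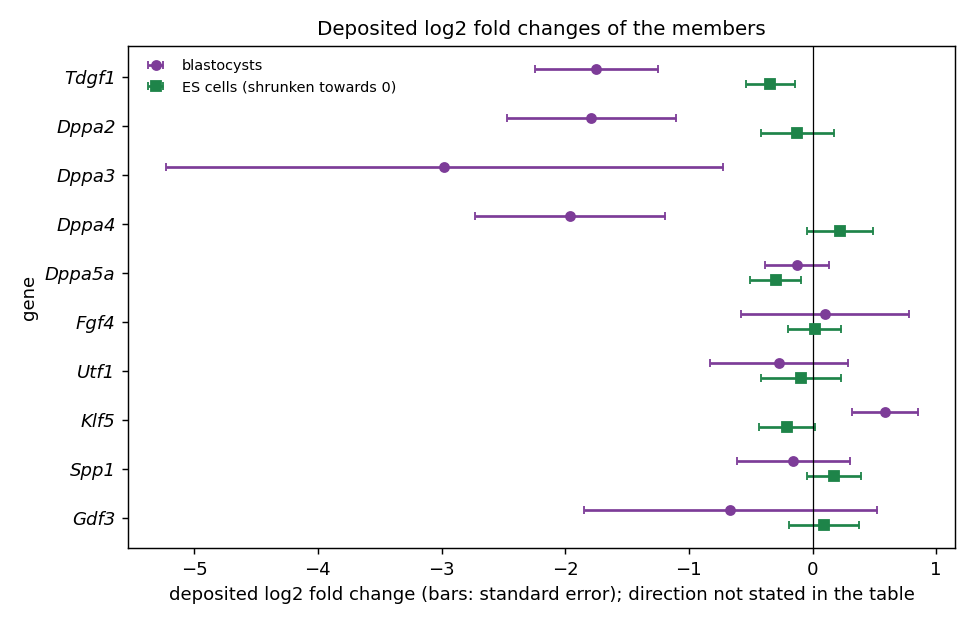
Deposited log2 fold change of each gene (points) with its standard error (bars) in blastocysts (purple circles) and ES cells (green squares, shrunken towards 0); Dppa3 has no ES cell value. Blastocyst values run from -2.98 for Dppa3 to 0.59 for Klf5, and ES cell values run from -0.34 for Tdgf1 to 0.22 for Dppa4.

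No gene of the lists around the members passed the adjusted threshold in ES cells in the authors' deposited table, and most lists held 1 or 2 genes with an unadjusted p-value under 0.05, a share to be read against the 5.62% of all tested genes. Every one of the 13 core transcription factors had a negative sign in the authors' deposited table (median -0.32), against 50% of all tested genes, and 1 of them (7.69%) had an unadjusted p-value under 0.05, Tbx3 at -0.69 with a p-value of 0.00939. In the Nodal list 2 of 12 (16.7%) did in the authors' deposited table, both of them convertases that cleave Nodal precursors: Furin (-1.09, p-value 0.000744, adjusted 0.124) and Pcsk6 (-0.62, p-value 0.0204). In the FGF list 2 of 17 (11.8%) did in the authors' deposited table, both feedback inhibitors: Spry4 (-0.996, p-value 0.00115, adjusted 0.15) and Spred1 (0.51, p-value 0.0353). Furin and Spry4 passed the threshold when the statistics were divided by their robust SD, and no other listed gene did. That SD was 0.904, so the division made every statistic larger and the threshold easier to pass.

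Among the methylation genes Dnmt3l, a cofactor of de novo methylation, had -0.48 (p-value 0.0260) in the authors' deposited table for ES cells, 1 of 9 (11.1%). Khdc3, the maternal KH-domain relative of Dppa5a, had -0.64 (p-value 0.0338) in the authors' deposited table, 1 of 2 tested. Of the 7 tested osteopontin receptor genes, 1 was positive and 6 negative in the authors' deposited table, and 0 had a p-value under 0.05 before adjustment. The 2 with the highest means in the authors' deposited table were Itgb1, at -0.34 (SE 0.24), and Cd44, the positive one, at 0.36 (SE 0.26). Of the primed epiblast list, Otx2 was the only gene tested, at -0.75 (p-value 0.0151) in the authors' deposited table. From the marker lists of other cell types, Tfap2c (0.91, p-value 0.00584), Col4a1 (-0.77, p-value 0.00734), Col1a1 (-0.92, p-value 0.00560) and Lum (-0.70, p-value 0.0322) reached a p-value under 0.05 before adjustment in the authors' deposited table for ES cells. All these fold changes are shrunken. The log2 ratios of recovered reads were -2.85 for Otx2, 2.13 for Tfap2c, -1.01 for Col4a1, -1.80 for Col1a1 and -1.86 for Lum.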

How the data were processed

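Single blastocyst libraries were made by Tn5 tagmentation of cDNA with about 15 cycles of PCR, and ES cell libraries, per the labels' protocols, were stranded after removal of ribosomal RNA. The authors' tools, per the submitters' processing notes, include STAR 2.4.0b, featureCounts of Subread 2.0.1 and DESeq2 1.34.0, with the build GRCm38. The signal column of each table holds the authors' mean of normalised reads, the log2 columns the authors' fold change and its standard error, the score column the authors' Wald statistic, and the p-value columns the authors' p and Benjamini-Hochberg adjusted p, all per the file headers. The tables deposited by the authors hold no per-sample counts, so the authors' statistics were used in place of a count test, as the design provided for.

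Whole reads per count column were recovered from the authors' deposited means, and the vector was kept whose negative binomial fit gave back the deposited fold change. The tolerance was 1e-10 log2 in blastocysts, 1e-05 in ES cells, and 0.001 where 1 vector alone matched the mean. The 8069 other ES cell genes were kept where 1 vector alone matched the mean, without the check on the fold change. Exactly 1 vector remained, among those searched, for each gene whose reads are given. No vector was found for Cdx2, Gata3 and Tfap2a in blastocysts and for Postn in ES cells. Krt8, Krt18, Dab2 and Lama1 in blastocysts were not searched because of their high means (3406 to 7678). All of these genes have the authors' statistics only. Of 100 simulated blastocyst genes with means of 20 to 100, 12 with means of 100 to 300 and 40 simulated ES cell genes with expected means of 40 to 1500, 100% were recovered. Dppa3, Spp1, Dppa5a and Klf5 in blastocysts and Spp1 in ES cells have higher means than were simulated. So do many of the summed marker genes, among them every trophectoderm marker in the blastocyst sum. Blastocyst reads were mostly even (5.54% of nonzero reads in low genes were odd), which was used in the search for Dppa5a and Klf5. It was also used for Elf5, Eomes, Fgfr2, Sall4, Tfcp2l1, Zfp42, Gata6, Col4a1, Sparc, Pdgfra and Fn1, and for Cdx2, Gata3 and Tfap2a. That search tried the fewest odd columns first and stopped at a match, so vectors with more odd columns were not examined. The search restricted in this way was not simulated. The ES cell fits carried a normal prior of variance 0.441. Fits used Python 3.11.15, numpy 2.4.6 and scipy 1.17.1. Counting limits cover counting error only, because PCR copies without molecular identifiers cannot be told from separate molecules. They treat each read as a separate count, although blastocyst reads were mostly even. The ES cell means resolved into fewer columns than the labels list samples, no column carries a replicate number, and no block was fitted.

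The 10 genes, the 11 lists around them and the tests were chosen with earlier results of these data known. Named are the 10 genes, Dis3l, listed genes with an unadjusted p-value under 0.05, the listed genes with the highest means, chromosomal neighbours and the 3 most alike profiles. The pseudogenes Tdgf1-ps1 and Dppa3-ps and the summed markers were added after values were seen. Lengths are those of GENCODE M21 transcripts on GRCm38.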

Additional observations from a re-analysis of the deposited data

Results flagged for a closer look

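Klf5 was arranged in opposite ways in the 2 materials. In blastocysts every positive-side column was above every negative-side column, with a log2 ratio of recovered reads of 0.59, and in ES cells both positive-side columns were below both negative-side columns, with a log2 ratio of -0.24. The difference between the materials was not tested. Neither table states its direction, so the sides of the tables need not be the same genotype, and in ES cells 21.1% of other genes had both positive-side columns below.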

How the results depend on the processing

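No member passed the threshold in blastocysts, in ES cells or in both under an adjusted p-value of 0.01, a change of at least 1 on the log2 scale, adjustment over every gene with a p-value, a mean of at least 50, statistics divided by their robust SD, or autosomal genes only, where the counts were 0. Among the listed genes around them, dividing the ES cell statistics by their robust SD (0.904, which enlarges them) moved the count from 0 to 2. Pseudocounts, recovered reads, centring and unshrunken values kept the direction of all 66 member values compared. Leaving out 1 column in turn reversed 13 of 96. In blastocysts the median of the 10 ranged from -1.43 to -0.10, the count of genes lower on the positive side from 6 to 9, Fgf4 from -0.17 to 0.70, Utf1 from -0.79 to 0.15 and Spp1 from -0.55 to 0.22. In ES cells the median of the 9 ranged from -0.17 to 0.11, the count from 4 to 8, Dppa2 from -0.61 to 0.20, Utf1 from -0.57 to 0.28, Fgf4 from -0.079 to 0.11, Spp1 from -0.080 to 0.54 and Gdf3 from -0.010 to 0.27. These counts without 1 column were added after seeing the data, and a column left out gives a ratio with no test. By union of exons, 10 of 10 genes kept their place in the order of levels in blastocysts and 5 of 9 in ES cells. With no division by length, 4 of 10 and 5 of 9 did. No paired analysis was possible because the tables hold no values per sample and the recovered columns carry no replicate number. A count of 0 reads and relative depths down to 0.695 limit the low genes of blastocysts.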
